A study of Drosophila melanogaster with 6 samples.

Results

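The Drosophila melanogaster annotation holds many genes with no given name, whose symbol is CR followed by digits, the form used for gene models taken as not coding for protein. Of 1399 such genes in the table, 88 (6.29%) had a value of at least 5 TPM, a read number scaled for gene length and library total, in each of the 6 libraries, and these 88 members are described here, out of 15010 genes of all kinds. The members were thus chosen by their lowest TPM over all libraries, so the levels below are descriptions and carry no test. Polyadenylated RNA was sequenced from tissue of adult progeny labelled intestine. The 3 control libraries came from offspring of MTD-GAL4/+ mothers and the 3 libraries called InR-DN here came from offspring of MTD-GAL4/InR-DN mothers. In both groups the fathers were Oregon R. MTD-GAL4 is a driver active in the female germline, and InR-DN is a dominant-negative form of the insulin receptor. The series asks whether metabolic stress of the mother shows in the gut of its progeny. Offspring may carry the driver or the transgene themselves, which cannot be told apart here from an effect of the mother. The sex and age of the flies, the number of animals pooled and the separateness of the crosses are not stated in the labels, so p-values measure the spread between libraries, which may be technical.

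Long noncoding RNAs are transcribed and often spliced like messenger RNAs but have no recognised protein product. Some act on chromatin, as the roX RNAs do on the male X chromosome, some are hosts from which small nucleolar RNAs or microRNAs are cut, and many have no known role. An RNA read from the strand opposite a gene can pair with that gene's transcript, and hairpin RNAs fold back on themselves and are cut by Dicer-2 into small interfering RNAs. A level given to such a gene can also come from reads of a coding gene whose exons it shares. The sources do not give a strand setting for the counting, so genes that overlap on either strand may hold each other's reads, which cannot be told apart.

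All 88 members were found in BDGP6.54. By their present annotation 61 were long noncoding RNAs, 18 were antisense RNAs, 3 were ribosomal RNA pseudogenes and 2 were hairpin RNAs. Another 2 are now annotated as protein coding, CR43051 (CG43051) and CR17567 (CG46059). The remaining 2 were the pseudogene CR43727 and CR43708, a small nuclear RNA now called snRNA:LU. CR44101 and CR31451 have since received the names dntRL and mimi.

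The libraries held 33935336 to 45161715 reads over all genes, recovered from the deposited values. The labelled tissue was checked against marker lists. All 7 gut markers had at least 5 TPM in every library, and their summed level ranged from 14875 to 22054 TPM. All 7 photoreceptor markers (summed level 3609 to 4955 TPM) and all 6 oocyte and nurse cell markers (1112 to 1305 TPM) were at or above 5 TPM too. So were all 4 neuron markers (81.7 to 94.0 TPM) and all 4 flight muscle markers (287 to 388 TPM). Both oenocyte markers found under their listed symbols were as well (6764 to 10625 TPM). The listed oenocyte marker FASN2 is present as v(2)k05816, at 92.1 to 150 TPM, and is not in that sum. Of 4 testis markers found, bam, a germline differentiation gene also active in the ovary, lay at 13.6 to 25.5 TPM and the other 3 lay near 0. The fat body list held 2 yolk protein genes at or above 5 TPM (summed level of the list 8915 to 13295 TPM), while Lsp2 and Fbp1 stayed under 1 TPM. The eggshell list ranged from 86.3 TPM in control replicate 1 to 1099 TPM in control replicate 2. Transcripts typical of other tissues were thus present in all 6 libraries labelled intestine, and their part in the member levels was not tested. In bulk RNA, fewer cells of a type and less RNA per cell cannot be told apart.

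Together the members made up 0.559% to 0.638% of each library, and 2 genes supplied 40.4% to 47.7% of that sum. Levels were uneven: 10 members averaged at least 100 TPM, 27 averaged 20 to 100 TPM, 25 averaged 10 to 20 TPM and 26 lay under 10 TPM. The median member averaged 14.8 TPM, against 45.2 TPM for the 8340 coding genes that also had at least 5 TPM in every library. By contrast, 990 of the 1399 CR-number genes had less than 1 TPM in every library. At the edge of the rule, the lowest values of the last 3 members were 5.08 TPM for CR44872, 5.14 TPM for CR44368 and 5.15 TPM for CR43264. Just outside it, CR43461, CR44029 and CR44228 had lowest values of 4.997, 4.95 and 4.94 TPM. In all, 21 CR-number genes, these 3 included, averaged at least 5 TPM but had less in at least 1 library.

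**Figure D1:**
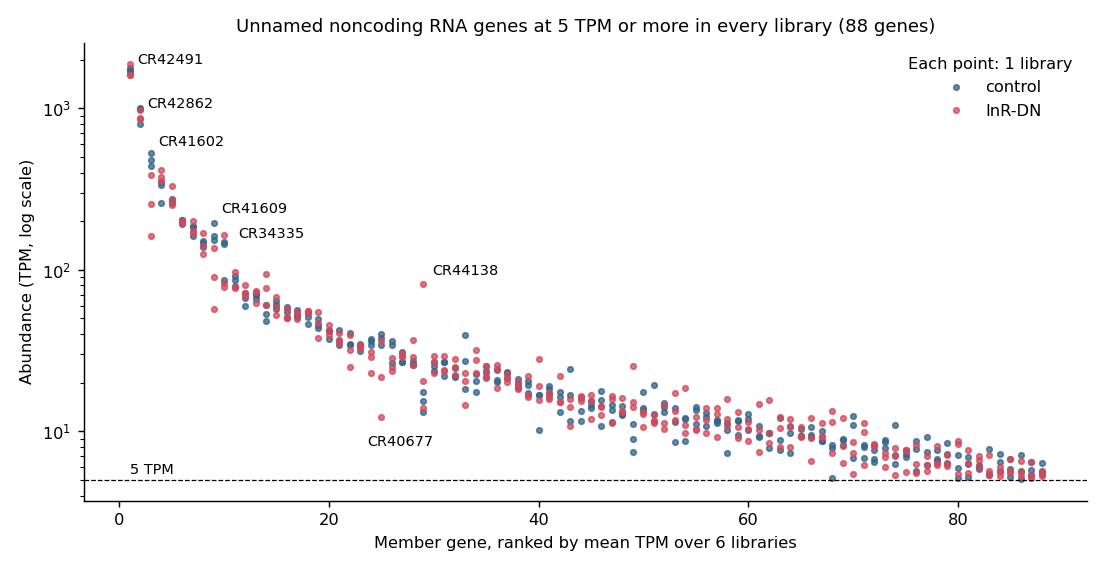
Level of each of the 88 members (TPM, log axis) against its rank by mean, with 1 point per library, blue for control and red for InR-DN, and a dashed line at 5 TPM. The first 2 genes stand above the rest, and the InR-DN points of CR41602 and CR41609 lie below the control points, while CR44138 has 1 high InR-DN library.

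CR42491 (FBgn0259993; arm X, 762615 to 763810 in BDGP6.54, minus strand) was the most abundant member. It lay at 1732, 1769.9 and 1677 TPM in control replicates 1 to 3 and 1606, 1893 and 1615 TPM in InR-DN replicates 1 to 3. The groups overlapped, and the highest library exceeded the lowest by 1.18 times. Its 2 exons cover 747 bases, of which 377 lie in same-strand exons of RpL22, which encodes a protein of the large ribosomal subunit, and it spans the small nucleolar RNA gene snoRNA:Psi18S-531. RpL22 lay at 1135 to 1347 TPM, and the ratio of CR42491 to RpL22 stayed at 1.38 to 1.42 in the 6 libraries.

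CR42862 (FBgn0262109; arm 3L, 224106 to 230964) came second, a gene of 4 exons and 5485 exon bases. It lay at 999.7, 987 and 805 TPM in control replicates 1 to 3 and 852, 973 and 868 TPM in InR-DN replicates 1 to 3. Control replicates 1 and 2 and InR-DN replicate 2 were high and the other 3 libraries low, so its order did not follow the groups. Only 246 of its bases lie in same-strand exons of CG33229, whose level was lower by 3.43 to 4.51 times. Most of its exon bases are thus outside any same-strand coding exon.

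CR40469 (FBgn0058469; arm X, 122493 to 122706), a single exon of 214 bases near the end of the X arm, lay at 335, 350.3 and 261 TPM in control replicates 1 to 3 and 415, 378 and 354 TPM in InR-DN replicates 1 to 3. Every InR-DN library was above every control library, with control replicate 3 the lowest. CR43900 on arm 2R shares 199 of its 737 exon bases with Cam, the calmodulin gene, and lay at 253 to 332 TPM, highest in InR-DN replicate 1. CR31781 on arm 2L shares no exon with another gene and lay at 161 to 201 TPM. Its nearest coding gene, CG32832, only 26 bases away, stayed under 1 TPM.

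Exons shared with a coding gene made up most of CR45184 and CR44999. CR45184 (FBgn0266694; arm 3L, 826720 to 830190) has 94.7% of its 2649 exon bases in exons of CG13900, now called Sf3b3, which encodes a splicing factor subunit, and it spans 5 small nucleolar RNA genes. It lay at 192 to 204 TPM and its ratio to CG13900 was 1.13 to 1.15. CR44999 (FBgn0266350; arm X, 3373159 to 3522787) has 1859 of 2025 exon bases in exons of dm, the fly Myc gene, a transcription factor that drives cell growth. It lay at 126 to 169 TPM, at 1.54 to 1.61 times dm in each library. CR45102 overlaps no exon and lies 185 bases from Mnt, which encodes a partner of Max and an antagonist of Myc, and lay at 76.8 to 97.2 TPM beside 73.7 to 108 TPM for Mnt.

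CR34335 (FBgn0267910; arm X, 3545750 to 3546110), a gene of 1 exon within the span of DIP-alpha (CG32791 in the table), a cell-surface protein of neurons, had a split pattern. It lay at 144, 86.6 and 148 TPM in control replicates 1 to 3 and 78.1, 165 and 83.02 TPM in InR-DN replicates 1 to 3. Control replicates 1 and 3 and InR-DN replicate 2 were high, the other 3 low, and DIP-alpha stayed at 2.17 to 2.83 TPM. CR43051, inside bun, a growth-related gene of the TSC22 family, spans a small nucleolar RNA gene and lay at 59.97 to 80.96 TPM. The snoRNA entry, snoRNA:CG43051-a, lay at 126 to 175 TPM.

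The rule did not use position in the genome directly. Reads of an overlapped gene may lift a gene past 5 TPM, so the shares of overlap below are not independent of the rule. Same-strand exon overlap with another gene was present in 32 of 88 members (36.4%), against 61 of 1306 other matched CR-number genes (4.67%). Overlap with opposite-strand exons alone was present in 22 members (25.0%) and in 394 others (30.2%). A start within 1 kb of an opposite-strand start was found for 8 members (9.09%) and 186 others (14.2%). The remaining 26 members (29.5%) and 665 others (50.9%) had none of these. Over 50% of exon bases lay in same-strand exons of 1 gene for 12 members and for 9 others. A small RNA gene lay within 6 members (6.82%) and 20 others (1.53%). Single-exon genes were 34 of 88 (38.6%) against 727 of 1306 (55.7%), and median exon length was 912 against 679.5 bases. The X chromosome held 32 members (36.4%), 203 of the others (15.5%) and 16.4% of the coding genes with at least 5 TPM throughout. These shares are given as counts, since genes are not replicates, and were not tested. For 15 of the 88 members the deposited values imply another exon length than BDGP6.54 gives, so their overlaps may differ in the gene models the authors used.

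**Figure D2:**
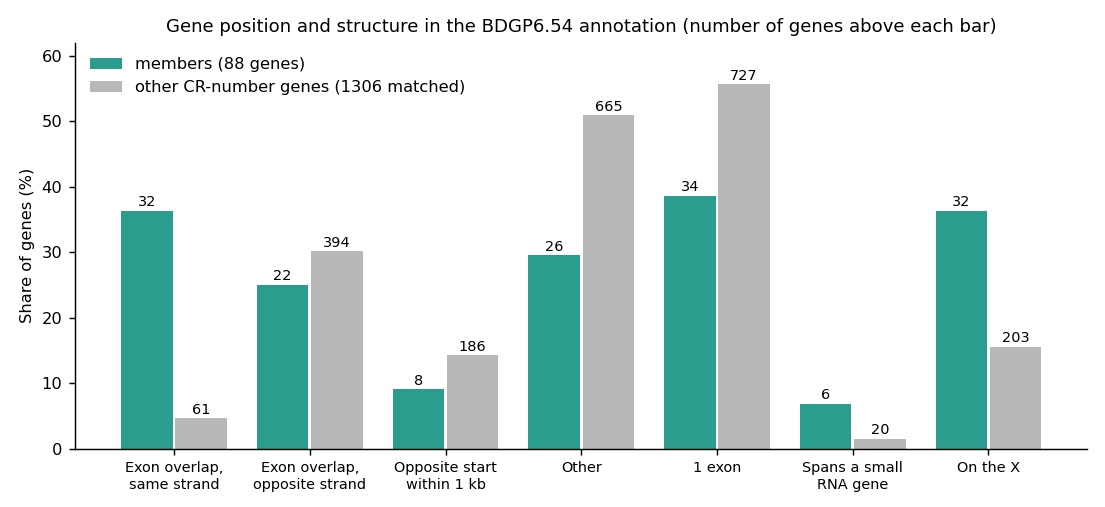
Share of genes (%) in each position class or with each property, green for the 88 members and grey for 1306 other matched CR-number genes, with the number of genes above each bar. Same-strand exon overlap was found in 36.4% of members and 4.67% of the others, and the X held 36.4% and 15.5%.

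Member levels were set beside those of the overlapped coding genes. Among 12 members with over 50% of exon bases in same-strand exons of a coding gene, the median ratio of member to partner level was 1.10, and 10 of 12 lay within 2-fold. CR45197, wholly inside exons of sgg, which encodes a GSK-3 kinase, averaged 52.8 TPM beside 42.2 TPM. CR45204, wholly inside exons of Imp, an RNA-binding protein gene, averaged 46.3 TPM beside 43.6 TPM. CR44097, wholly inside CG6000, was at 1.17 to 1.19 times its partner in every library. The low end was CR44872, wholly within CG5850 yet at 0.113 to 0.176 times its level.

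Next came 10 members that share no same-strand exon and have over 50% of exon bases opposite coding exons. Their median ratio was 0.189, with a range of 0.00177 to 36.0, and 1 lay within 2-fold. Members that also share same-strand exons are not among these 10. Examples are CR45600, with 1731 of 2914 exon bases opposite exons of another gene, and CR44872, with 732 of 985. CR45601 lies wholly opposite exons of Yp1, a yolk protein gene that averaged 7837 TPM. CR45601 itself lay at 11.5, 14.5 and 13.6 TPM in control replicates 1 to 3 and 16.4, 15.8 and 11.3 TPM in InR-DN replicates 1 to 3, which was 0.151% to 0.235% of Yp1 in each library. CR44095 lay at 5.35 to 7.79 TPM, opposite Cys, a cystatin gene averaging 259 TPM. In contrast CR44381 averaged 7.63 TPM opposite CG14054 at 0.212 TPM, and CR45010 14.2 TPM opposite FucTC at 2.197 TPM. The last 2 therefore had higher levels than the gene on the other strand. As a description over genes that share libraries, Spearman's rho between member and partner fold changes was 0.54 over 31 same-strand pairs and -0.31 over 19 opposite-strand pairs. It was 0.62 over 22 pairs of a member and its nearest gene that shared no exon, of which 3 have ATbp as the nearest gene, and -0.21 over 7 pairs with nearby opposite starts. A positive value was thus also seen over pairs with no shared exon, but it was not recomputed without the ATbp pairs. The 31 same-strand pairs include CR43857 with mir-275, which had only 1 to 6 reads per library.

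**Figure D3:**
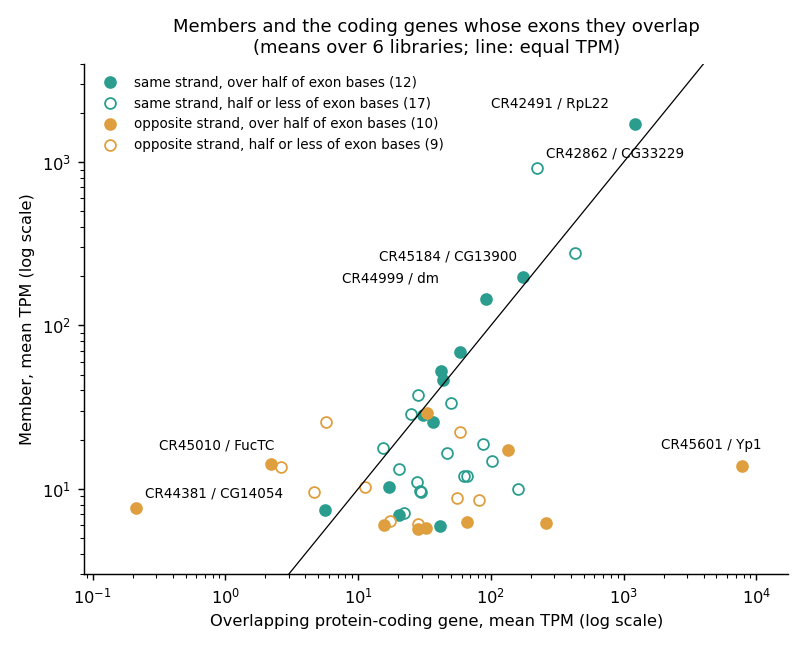
Mean TPM of members over 6 libraries against that of the coding gene whose exons they overlap (both log axes), green for same and orange for opposite strand, filled where over 50% of the member's exon bases overlap, with a line at equal levels. The filled green points follow the line with a median ratio of 1.10, and the filled orange points spread from 0.00177 to 36.0.

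The hairpin RNAs came next by kind. CR32207 (FBgn0052207; arm 3L, 19477329 to 19478720) lay at 56.2, 52.2 and 51.1 TPM in control replicates 1 to 3 and 54.5, 49.5 and 54.3 TPM in InR-DN replicates 1 to 3. CR32205 (FBgn0052205; arm 3L, 19420390 to 19424183) lay at 20.3 to 23.2 TPM. For both the groups overlapped, with log2 fold changes of -0.01 (SE 0.08) and -0.07 (SE 0.08). A further hairpin gene of the table, pncr009:3L, was no member by its symbol and lay at 127 to 134 TPM.

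No member passed the comparison of progeny of InR-DN mothers with controls. With limma on log2(TPM + 1) and Benjamini-Hochberg adjustment over 10816 genes, 0 of 88 members and 0 genes in all (0.0%) had an adjusted p under 0.05, and the smallest adjusted p of a member was 1.00. limma voom on the recovered reads also called 0 members, and 1 gene in all. At an unadjusted p under 0.05, 3 members were higher and 4 lower, beside 1.13% and 2.02% of all genes tested. That is 7.95% of members against a background of 3.15%. The count depends on single libraries: it was 1 higher without InR-DN replicate 1, 6 higher and 7 lower without InR-DN replicate 2, 1 lower without control replicate 1 and 8 lower without control replicate 3. The groups did not overlap for 9 members, 4 higher and 5 lower, which is 10.2% against 6.36% of all genes (2.58% higher and 3.78% lower). The rRNA pseudogenes CR41602 and CR41609 are among the lower members by unadjusted p and also by lack of overlap. Their ratio stayed at 2.72 to 2.94 in all 6 libraries, so they do not count as separate differences. With 3 against 3 libraries, an exact permutation test of 1 gene cannot go below p = 0.1.

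Most members lay close to equality. The median log2 fold change (InR-DN minus control) was -0.01 for members and 0.01 for all genes tested. It was above 0 for 40 members and below 0 for 48, within 0.25 of 0 for 67, and ranged from -0.94 to 0.89. By position, the medians were -0.02 for 22 members opposite other exons, 0.03 for 8 with a nearby opposite start and -0.04 for 26 with neither. The 32 same-strand overlapping members had fold changes from -0.24 to 0.89. The 12 most abundant members held 2 rRNA pseudogenes at -0.94 and -0.92 and otherwise lay between -0.26 and 0.29.

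**Figure D4:**
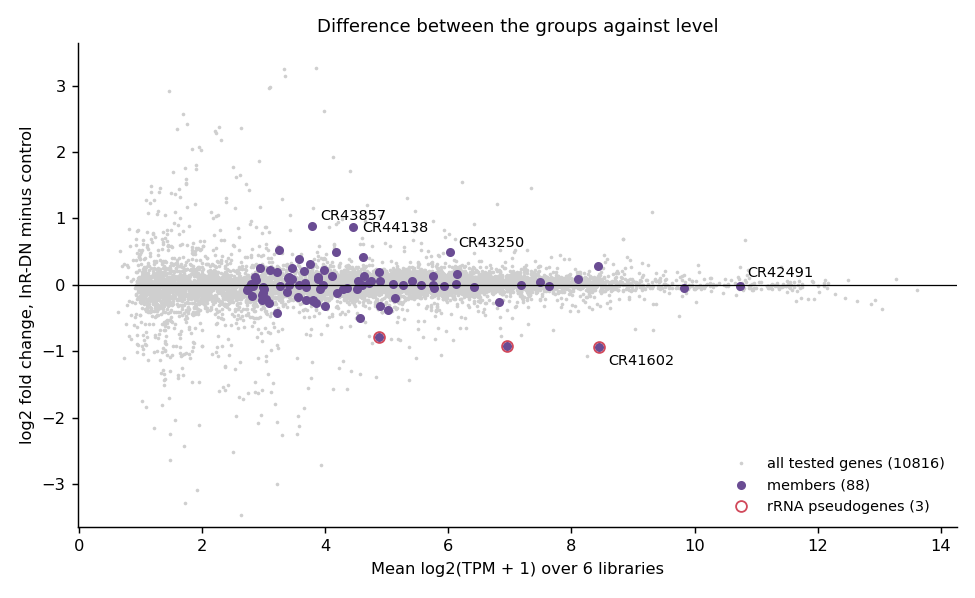
log2 fold change, InR-DN minus control, against mean log2(TPM + 1) over 6 libraries for 10816 tested genes (grey) and the 88 members (purple), with the 3 rRNA pseudogenes ringed in red. Members lie between -0.94 and 0.89 around a median of -0.01, and the rRNA pseudogenes are the lowest 3.

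The rRNA pseudogenes had the largest negative fold changes. These are copies of ribosomal RNA sequence near the base of the X, and reads of near-identical copies elsewhere can be assigned to them, so their levels are uncertain. CR41602, an 18S pseudogene (FBgn0085813; arm X, 23211192 to 23213166), lay at 527, 442 and 480 TPM in control replicates 1 to 3 and 385, 162 and 254 TPM in InR-DN replicates 1 to 3. Each InR-DN library was below each control library, and InR-DN replicate 2 was the lowest. The means were 483 ± 42.4 TPM in controls and 267 ± 112 TPM in the InR-DN group (SD, n = 3 per group). The log2 fold change was -0.94 (SE 0.29, limma unadjusted p = 0.0144, adjusted p = 1.00).

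CR41609, a 28S pseudogene (FBgn0085819; arm X, 23261772 to 23262666), lay at 194, 153 and 163 TPM in control replicates 1 to 3 and 136, 57.3 and 89.96 TPM in InR-DN replicates 1 to 3. The order of the InR-DN libraries was that of CR41602, and the ratio of the 2 genes stayed at 2.72 to 2.94 in all 6 libraries. Its log2 fold change was -0.92 (SE 0.29). CR40677, a 2S pseudogene (FBgn0085765; arm X, 23205409 to 23205438), lay at 40.3, 34.3 and 37.9 TPM in control replicates 1 to 3 and 36.2, 12.2 and 21.7 TPM in InR-DN replicates 1 to 3. Its groups overlapped, since InR-DN replicate 1 lay within the control range, and its log2 fold change was -0.78 (SE 0.34). The 3 together summed to 761, 629.8 and 681 TPM in controls and to 556, 232 and 366 TPM in InR-DN libraries.

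Leaving out InR-DN replicate 2 moved the log2 fold change of CR41602 to -0.62, that of CR41609 to -0.61 and that of CR40677 to -0.40. Ribosomal RNA lacks a poly(A) tail and is largely removed by poly(A) selection, and the sources do not state the share left in each library. The length that turned the values into whole reads was 6026 bases for CR41602, 1902 for CR41609 and 931 for CR40677, against 1975, 895 and 30 bases in BDGP6.54. The gene models behind the values thus differed from the present ones. Another 28S pseudogene, CR40741, was no member, with at most 0.0679 TPM.

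Of the members higher in the InR-DN group, CR43857 had the smallest p. CR43857 (FBgn0264439; arm 2L, 7423820 to 7425932, plus strand) spans mir-275, a microRNA gene, and lay at 11.1, 8.999 and 7.502 TPM in control replicates 1 to 3 and 15.3, 14.2 and 25.3 TPM in InR-DN replicates 1 to 3. Every InR-DN library exceeded every control library, with InR-DN replicate 3 the highest. The means were 9.19 ± 1.79 TPM in controls and 18.2 ± 6.14 TPM in the InR-DN group (SD, n = 3 per group). The log2 fold change was 0.89 (SE 0.24). The limma unadjusted p was 0.00766 and the adjusted p 1.00. Without InR-DN replicate 3 the log2 fold change was 0.64. mir-275 itself had 1 to 6 reads per library, and mir-305, known in the fly gut for a part in the response of stem cells to diet, 0 to 4, so their hairpins cannot be compared at this depth.

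CR43250 (FBgn0262895; arm 3L, 17033119 to 17033676) lies 1039 bases from Ilp8, which encodes a relaxin-like peptide that delays metamorphosis in larvae, and 510 bases from another member, CR45756. It lay at 52.9, 48.5 and 60.7 TPM in control replicates 1 to 3 and 94.3, 60.4 and 76.9 TPM in InR-DN replicates 1 to 3. InR-DN replicates 1 and 3 were above all controls, while InR-DN replicate 2 lay just under control replicate 3. The log2 fold change was 0.49 (SE 0.17, limma unadjusted p = 0.0242, adjusted p = 1.00), and it was 0.33 without InR-DN replicate 1. Ilp8 lay at 133, 102 and 155 TPM in control replicates 1 to 3 and 224, 147 and 194 TPM in InR-DN replicates 1 to 3. Its log2 fold change was 0.53 (SE 0.20), while CR45756 was at 0.09, with levels of 7.66 to 12.3 TPM.

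CR42861 (FBgn0262108; arm X, 13744928 to 13745476) starts 245 bases from the opposite start of Grip91, a gene of the gamma-tubulin complex. It lay at 22.6, 20.6 and 17.5 TPM in control replicates 1 to 3 and 31.7, 27.5 and 23.01 TPM in InR-DN replicates 1 to 3, with InR-DN replicate 3 only slightly above the highest control. Its log2 fold change was 0.42 (SE 0.15, limma unadjusted p = 0.0252, adjusted p = 1.00), beside 0.03 for Grip91. CR40469, given above, had 0.29 (SE 0.12, limma unadjusted p = 0.0572, adjusted p = 1.00) and was at 0.15 without control replicate 3.

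The 4 others named by the rule as higher also had unadjusted p-values above 0.05. CR44381, on the strand opposite CG14054, lay at 7.71, 6.503 and 6.77 TPM in control replicates 1 to 3 and 8.17, 8.24 and 8.398 TPM in InR-DN replicates 1 to 3, close together in the InR-DN group and above all controls. CR45631 lay at 7.85, 5.16 and 8.27 TPM in control replicates 1 to 3 and 13.3, 7.37 and 11.4 TPM in InR-DN replicates 1 to 3, with InR-DN replicate 2 inside the control range. CR17567, now CG46059 and 76 bases from the germline tubulin gene gammaTub37C, lay at 7.30, 10.1 and 11.2 TPM in control replicates 1 to 3 and 15.8, 10.8 and 11.9 TPM in InR-DN replicates 1 to 3. CR43836, which spans mir-31b, lay at 16.7, 10.2 and 16.8 TPM in control replicates 1 to 3 and 28.01, 15.7 and 19.1 TPM in InR-DN replicates 1 to 3. Their log2 fold changes were 0.22, 0.52, 0.39 and 0.49. In InR-DN replicate 1, CR43250, CR42861, CR40469, CR45631, CR17567 and CR43836 all had their highest value. All of them were picked as higher in the InR-DN group. InR-DN replicate 1 was also the highest library for 36.4% of members and 38.8% of all genes tested. That library had the highest summed level of the 6 oocyte and nurse cell markers, at 1305 TPM against 1112 to 1237 TPM in the others. Within that list, grk and orb were highest in InR-DN replicate 2. InR-DN replicate 1 also had the lowest summed gut markers (14875 TPM against 19426 to 22054 TPM), photoreceptor markers (3609 against 4106 to 4955 TPM) and oenocyte markers (6764 against 7435 to 10625 TPM). Not every gene of these lists followed its sum, and norpA was highest in InR-DN replicate 1. Jon99Ciii was lowest in control replicate 1, Mal-A1 and Amy-p in control replicate 2, and eloF in InR-DN replicate 2. The part of any of these tissues in the member values was not tested.

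Among members lower in the InR-DN group, CR43837 (FBgn0264385; arm X, 6995882 to 6997799) starts 873 bases from the opposite start of Inx2, a gap junction gene. It lay at 37.1, 36.4 and 34.3 TPM in control replicates 1 to 3 and 31.02, 23.1 and 28.8 TPM in InR-DN replicates 1 to 3. All InR-DN libraries were below all controls, with InR-DN replicate 2 the lowest. The log2 fold change was -0.38 (SE 0.12, limma unadjusted p = 0.0169, adjusted p = 1.00), while Inx2 lay at 61.97 to 74.01 TPM with overlapping groups. CR44922 (FBgn0266227; arm 3R, 4375084 to 4377600), 1000 bases from CG11739, lay at 8.54, 8.89 and 7.85 TPM in control replicates 1 to 3 and 6.901, 7.36 and 6.05 TPM in InR-DN replicates 1 to 3, also without overlap. Its log2 fold change was -0.28 (SE 0.11, limma unadjusted p = 0.0388, adjusted p = 1.00). Both oenocyte markers found under their listed symbols also had lower means in the InR-DN group. The log2 fold change was -0.36 for Cyp4g1 (limma unadjusted p = 0.0271) and for eloF (limma unadjusted p = 0.0127), and the adjusted p of both was 1.00. The groups did not overlap for eloF. FASN2, present as v(2)k05816, averaged 140 TPM in controls and 108 TPM in the InR-DN group, a log2 fold change of -0.38. The part of oenocytes in the lower member values was not tested.

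The other 3 members named by the rule as lower were antisense RNAs, with limma unadjusted p-values of 0.0534 for CR44599, 0.0761 for CR44035 and 0.112 for CR44124. Of all 18 antisense members, 9 had a log2 fold change above 0 and 9 below, and none had an unadjusted p under 0.05. CR44599, opposite loqs, which encodes a double-stranded RNA-binding partner of Dicer, lay at 34.3, 36.01 and 26.7 TPM in control replicates 1 to 3 and 25.2, 23.6 and 28.3 TPM in InR-DN replicates 1 to 3, and control replicate 3 lay within the InR-DN range. loqs itself varied little, at 31.3 to 34.2 TPM. CR44035, opposite CG8534, lay at 17.5, 13.9 and 13.6 TPM in control replicates 1 to 3 and 12.7, 10.7 and 13.1 TPM in InR-DN replicates 1 to 3, all InR-DN libraries below all controls. CG8534 had its higher mean in the other group, with 0.883 ± 0.1496 TPM in controls and 4.38 ± 2.09 TPM in the InR-DN group (SD, n = 3 per group). Its log2 fold change was 1.44 (limma adjusted p = 0.692) against -0.28 for CR44035 (SE 0.13). CR44124, opposite l(1)G0222 (Ankle2), lay at 10.9, 12.4 and 6.86 TPM in control replicates 1 to 3 and 7.297, 5.42 and 8.55 TPM in InR-DN replicates 1 to 3, with control replicate 3 inside the InR-DN range.

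**Figure D5:**
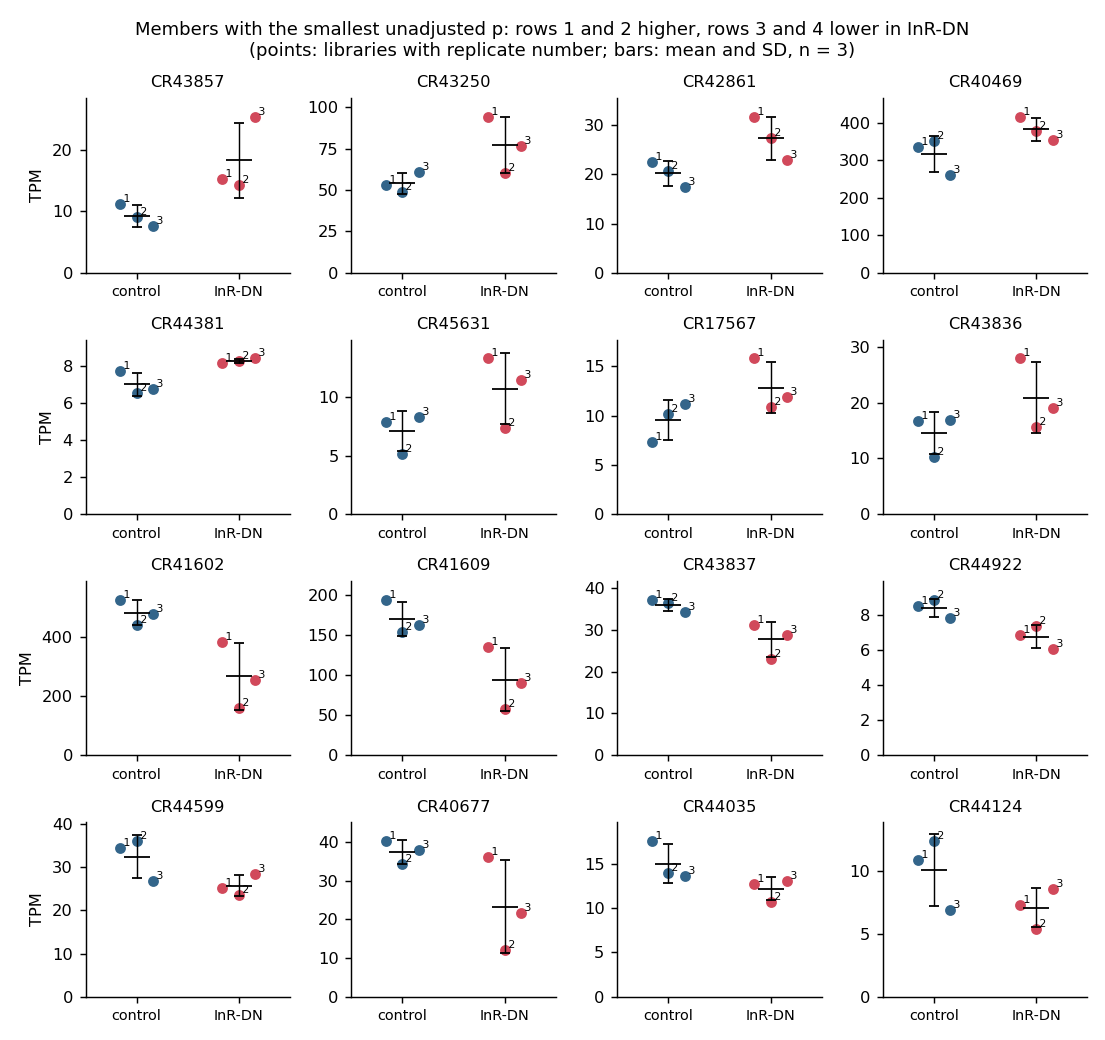
TPM of the 8 members with the smallest unadjusted p in each direction, rows 1 and 2 higher and rows 3 and 4 lower in InR-DN, with a point for each library marked by its replicate number and bars for mean and SD (n = 3 per group). The groups do not overlap for CR43857, CR42861, CR40469, CR44381, CR41602, CR41609, CR43837, CR44922 and CR44035.

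The spread within groups was described over genes and not tested. The median coefficient of variation (CV) was 12.8% for members and 9.52% for coding genes with at least 5 TPM throughout. At mean levels of 5 to 20 TPM it was 15.2% for 51 members and 11.2% for 1548 coding genes, and at 20 to 100 TPM it was 10.03% for 27 members and 9.50% for 5188 coding genes. Counting error adds to these values: the lowest read number of a member in a library was 29 and the median of the members' lowest numbers 233.5. Over all 6 libraries the highest value was a median of 1.44 times the lowest. It was under 1.5 times for 52 members and at least 2 times for 15.

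CR44138 (FBgn0264987; arm 3R, 13376903 to 13377395) had the highest CV, 68.98%. A single exon of 493 bases inside the span of CG9813, it lay at 17.5, 15.5 and 13.1 TPM in control replicates 1 to 3 and 20.4, 81.3 and 13.9 TPM in InR-DN replicates 1 to 3. InR-DN replicate 2 alone was high, at 6.19 times the lowest library, and the other InR-DN libraries lay near the controls, while CG9813 stayed at 48.2 to 62.8 TPM. Its log2 fold change was 0.87 (SE 0.59). CR40677 and CR34335 followed, both with a CV of 37.1%. CR43973, inside the span of Ctps, the CTP synthase gene, lay at 27.4, 39.6 and 18.4 TPM in control replicates 1 to 3 and 22.9, 14.6 and 20.6 TPM in InR-DN replicates 1 to 3, a CV of 30.8%. Control replicate 2 was its highest library.

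At the other end, CR45184, the member inside CG13900, had a CV of 2.48%. CR45600, an antisense RNA on arm 3R, lay at 31.4 to 34.9 TPM (CV 4.202%), CR45126, opposite bip2 (Taf3, a subunit of the general transcription factor TFIID), at 15.96 to 18.95 TPM (CV 4.78%), and the hairpin CR32205 had 4.88%. CR43685, whose start faces that of e(y)2b, a gene at 0.945 to 1.30 TPM, lay at 52.4 to 67.9 TPM. No library set the order for all members: InR-DN replicate 1 was highest for 32 members (36.4%, against 38.8% of all genes tested) and control replicate 1 for 24 (27.3% against 12.9%). InR-DN replicate 2 was lowest for 26 (29.5% against 40.0%) and control replicate 3 for 21 (23.9% against 14.9%).

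For scale, 23 of 29 listed noncoding genes with given names were found in the table under the listed symbol. Of these, 12 had at least 5 TPM in every library. The listed gene dntRL is present as the member CR44101 and is not in these counts. The host of small nucleolar RNAs Uhg7 lay at 792 to 914 TPM, between CR42862 and CR41602 by its mean. Other such hosts lay lower, Uhg1 at 84.7 to 111 TPM, Uhg2 at 96.3 to 121 TPM, Uhg3 at 90.9 to 123 TPM, Uhg4 at 121 to 170 TPM, Uhg5 at 103 to 135 TPM and Uhg8 at 29.1 to 38.5 TPM. The stress-induced Hsromega lay at 10.1 to 12.1 TPM, RNaseP:RNA at 18.9 to 25.8 TPM, RNaseMRP:RNA at 3.50 to 7.33 TPM, pncr013:4 at 48.4 to 77.1 TPM and pncr016:2R at 6.602 to 9.77 TPM. roX1, of the dosage compensation complex of males, varied from 1.64 to 13.7 TPM and roX2 from 0.0414 to 1.34 TPM, both highest in control replicate 1. sphinx and snRNA:7SK had at most 1.55 and 2.81 TPM, while yar, iab-8, bxd, bft, pncr002:3R and 7SLRNA:CR32864 stayed under 1 TPM.

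Of 7 CR-number genes listed for immunity, 2 were found in the table under the listed symbol. CR33942, also listed, is present as pncr016:2R, at 6.602 to 9.77 TPM, and was no member by its symbol. CR30055, a member in the span of Sin3A, which encodes a corepressor, lay at 41.9, 37.5 and 42.1 TPM in control replicates 1 to 3 and 45.5, 39.5 and 41.6 TPM in InR-DN replicates 1 to 3, with overlapping groups. CR44404, now named IBIN and known to be induced by infection, was no member, at 0.473 to 1.49 TPM.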

How the data were processed

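The authors deposited 1 table of TPM values per gene for 6 libraries of polyadenylated RNA, per the file headers. Per the submitters' processing notes the tools included TopHat and edgeR, with no version or role. The sources used here name no genome build, annotation or strand setting. Members and lists (29 named noncoding genes, 7 immunity genes, 9 marker lists) were chosen with earlier results of these data known. Gene symbols were looked up in BDGP6.54 (14861 of 15010 genes, all members), which gave positions. Overlap classes were assigned in the order same-strand exons, opposite-strand exons, opposite starts within 1 kb, other. Reads were recovered as whole multiples (tolerance 1e-06) from TPM and exon length, with another length for 15 members.

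Groups were compared with limma 3.58.1 in R 4.3.3 (intensity trend, log2(TPM + 1), genes reaching 1 TPM in 3 or more libraries, 10816 genes, Benjamini-Hochberg adjustment at 0.05), after a check on simulated data. The log2(TPM + 1) scale understates changes of low genes. All 88 members entered the test. The fit was repeated with pseudocounts of 0.1 and 5, a minimum of 5 TPM or none, rescaling by the median of ratios, no trend, a replicate block, limma voom on recovered reads (scaled by trimmed mean of M values) and leaving out each library. Named members were the 12 most abundant, the 8 with the smallest p in each direction, the 4 with the highest and lowest CV, the first 2 of each position class, up to 6 that are no long noncoding RNA, and 3 on each side of the 5 TPM limit. Members named in the overlap, annotation and immunity paragraphs beyond these were chosen after their values were seen. No sequence is shown.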

Additional observations from a re-analysis of the deposited data

How the results depend on the processing

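No member passed an adjusted p of 0.05 under any of the 14 alternatives. The number of genes past it among all tested was 1 with a pseudocount of 0.1 TPM, 1 with limma voom on recovered reads and 0 to 3 when 1 library was left out, against 0 as reported. Replicate numbers are not stated to pair the libraries. Correlations of same-numbered deviations were -0.41, -0.18 and -0.13, and those of other pairs ran from -0.15 to 0.31. These values cannot decide on pairing, since deviations within a group of 3 libraries are tied to each other. With the replicate block 7 members had an unadjusted p under 0.05 and a higher mean, against 3, with 0 past the adjusted p. Leaving out 1 library gave 1 to 6 such higher and 1 to 8 such lower members. All 224 recomputed fold changes of the 16 members with the smallest p kept their direction, and the smallest adjusted p of any was 0.369. Another limit on the lowest TPM gave 165 members (2 TPM) or 52 (10 TPM), and a mean of at least 5 TPM gave 109. The cause of these differences was not tested. Low read numbers limit the members near 5 TPM, and shared exons limit what a level means for those that overlap other genes.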
